A study of Homo sapiens with 12 samples.

Results

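CUL4B is a cullin, the scaffold of a family of ubiquitin ligases, and it was set here beside 9 other genes of that family: CUL4A, CUL1, CUL2, CUL3, CUL5, CUL7, CUL9, DDB1 and RBX1. The genes were taken by symbol from the annotation of the array, and every probe set annotated to 1 of these symbols alone was kept. This gave 27 probe sets of the 54675 on the array, 24 of which passed a filter on dim signals that 32768 probe sets passed. The family was selected on CUL4B signal, which was lower with the tRNA vector than with the empty vector, so the values of that comparison describe the choice and carry no test.

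The study used 293T, a line derived from human embryonic kidney. Cells were transfected with polyethylenimine and collected 48 hours later, with 1 oligonucleotide array for each of 12 RNA samples. Of these, 4 samples had received a vector with an artificial hairpin for CU1276, 4 one carrying the whole tRNA, chr1.tRNA68-Gly(GCC), and 4 an empty vector. CU1276 is a small RNA cut from that tRNA, and all 3 groups had gone through the same transfection, so none is untransfected. The promoters of the vectors and the share of cells that took them up are not given in the sources used here. The labels call the samples biological replicates and do not say that they are separate cultures, so p-values measure the spread between these samples.

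In a cullin ligase the cullin holds a RING protein (RBX1 in most of them) at one end, which brings in the ubiquitin-loaded E2 enzyme, and an adaptor with a substrate receptor at the other. CUL4A and CUL4B use DDB1 as adaptor and proteins called DCAFs as receptors, and the ligases they form act on chromatin, DNA replication licensing and repair of ultraviolet damage. Attachment of the ubiquitin-like protein NEDD8 turns cullin ligases on, and the COP9 signalosome takes it off again.

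Signals are linear MAS5 intensities, which the authors had scaled to the same trimmed mean in each array (500.1). Array medians ran from 75.9 to 104, and the number of arrays limits the precision. The 24 probe sets for added Bacillus control RNAs differed with array number: they averaged 1941 to 2062 for number 1, 371 to 432 for number 2, and 19.8 to 27.6 for numbers 3 and 4. Each of these 3 levels holds the vectors in equal numbers. Of 6 genes on the array that are known from embryonic kidney or this line, 5 passed the filter (PAX2, EYA1, NEFL, NEFM and VIM) and LHX1 did not. Of 6 T cell and myeloid genes ITGAM alone passed, and PTPRC, CD3E, CD2, LYZ and CD14 did not. Of 4 B cell genes 3 passed, with a summed signal of 265 to 381 with the hairpin vector and 217 to 375 with the tRNA vector, against 265 to 420 for the empty vector. Fibroblast genes passed in 5 of 6 cases (COL1A1, COL1A2, COL3A1, DCN and PDGFRB), mature tubule genes in 2 of 4 and erythroid genes in 1 of 2. Passing the filter was thus not particular to genes of this line. Summed empty vector signals were 809.6 to 1401 for the fibroblast genes and 26297 to 30251 for the embryonic kidney and line genes.

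Of the 4 CUL4B probe sets, 1 was lower with the tRNA vector in all arrays and the brightest was not. Probe sets of a gene are numbered here from the brightest down, and the plots give their array names. With the tRNA vector, CUL4B-2 had 0.648 times the empty vector signal, and CUL4B-4 had 0.815 times. The brightest, CUL4B-1, had 0.983 times, and CUL4B-3 had 0.934 times. By the suffix of its array name, CUL4B-3 holds probes that may also bind other sequences, and the other CUL4B probe sets hold probes shared by several transcripts. In bulk samples, a lower signal from fewer cells that express a gene and one from less RNA in each cell cannot be told apart.

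In arrays 1 to 4, CUL4B-2 gave 1856, 2484, 2727 and 3330 with the hairpin vector. The tRNA vector gave 1653, 1597, 1883 and 1992, against 2426, 2499, 3216 and 2878 for the empty vector. All 4 tRNA vector arrays lay below all 4 empty vector arrays, and the hairpin vector arrays spanned both, with hairpin array 1 among the tRNA vector values. Among all tested probe sets 1.43% lay wholly below the empty vector in this way, and since this difference chose the gene, nothing is read from that share. Means were 2599 ± 610 with the hairpin vector and 1781 ± 187 with the tRNA vector, against 2755 ± 366 for the empty vector (SD, n = 4). In order of level the empty vector came first, then the hairpin vector, which overlapped it, then the tRNA vector.

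On the log2 scale, the tRNA vector over the empty vector was -0.63 ± 0.15 for CUL4B-2 (± is the limma standard error where SD is not written). Between arrays of the same number it was -0.55, -0.65, -0.77 and -0.53, values that belong to the choice of the gene. The hairpin vector stood at -0.11 ± 0.15 against the empty vector, with same-number differences of -0.39, -0.0091, -0.24 and 0.21. Against the tRNA vector it stood at 0.52 ± 0.15, higher in 4 of 4 same-number comparisons, the smallest of them in array 1 (0.17). These contrasts share the tRNA vector or the empty vector arrays by which CUL4B was chosen, so they carry no test either.

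The brightest CUL4B probe set, CUL4B-1, behaved otherwise. It gave 3319, 4100, 3358 and 3500 with the hairpin vector. The tRNA vector gave 3390, 3677, 4404 and 3764, against 3687, 4502, 3476 and 3842 for the empty vector. The 3 groups overlapped throughout. The tRNA vector over the empty vector was -0.025 ± 0.10, with same-number differences of -0.12, -0.29, 0.34 and -0.029, and the sign turned without empty vector array 2 (0.049) or tRNA vector array 1 (0.028). With the hairpin vector it was -0.12 ± 0.10 against the empty vector, lower in 4 of 4 same-number comparisons, and -0.092 ± 0.10 against the tRNA vector.

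The dimmest CUL4B probe set, CUL4B-4, lay between these patterns. Its signals were 815, 1112, 1152 and 1190 with the hairpin vector. They were 761, 905, 1008 and 1058 with the tRNA vector, against 1046, 1101, 1268 and 1140 for the empty vector. The tRNA vector arrays reached into the lower end of the empty vector range through array 4 alone. Its tRNA over empty vector value was -0.29 ± 0.14, with same-number differences of -0.46, -0.28, -0.33 and -0.11. The hairpin vector stood at -0.11 ± 0.14 against the empty vector and at 0.19 ± 0.14 against the tRNA vector.

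For CUL4B-3 the hairpin vector gave 1358, 1760, 1729 and 1760. The tRNA vector gave 1538, 1662, 1896 and 1813, against 1591, 1784, 2008 and 2029 for the empty vector. The groups overlapped, and array 1 was the lowest of each group. Both vectors stood below the empty vector in 4 of 4 same-number comparisons, with a log2 difference of -0.17 ± 0.11 for hairpin and -0.099 ± 0.11 for tRNA.

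**Figure D1:**
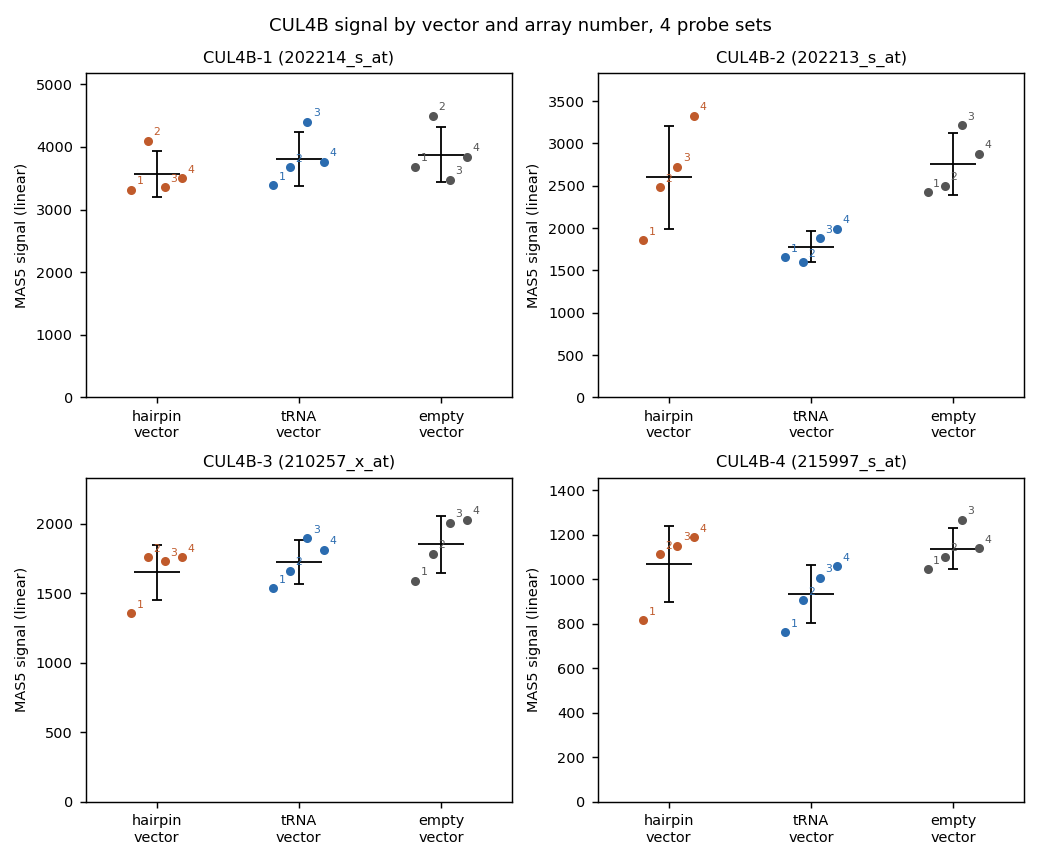
MAS5 signal (linear, vertical axis from 0) of the 4 CUL4B probe sets in each of the 12 arrays, by vector, with the array number beside each point and bars for the mean ± SD of 4 arrays. In CUL4B-2 the 4 tRNA vector arrays (1597 to 1992) lie below the 4 empty vector arrays (2426 to 3216), and in CUL4B-1 the groups overlap.

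Across the 12 arrays, log2 signals of CUL4B-2 and CUL4B-4 correlated at r = 0.88, and r was 0.868 after the group means were taken out. With CUL4B-3 the r of CUL4B-2 was 0.549, or 0.831 after the group means were taken out. With the brightest probe set it was -0.031, or 0.023. The r of CUL4B-1 was 0.448 with CUL4B-3 (0.363 after the group means were taken out) and 0.24 with CUL4B-4 (0.302), and that of CUL4B-3 with CUL4B-4 was 0.772 (0.895). The points share the 12 arrays and their scaling, and r is given as a description. After the group means were taken out, r was thus 0.831 to 0.895 among CUL4B-2, CUL4B-3 and CUL4B-4, and 0.023 to 0.363 between them and CUL4B-1. CUL4B-2, CUL4B-4 and CUL4B-3 also stood higher in arrays numbered 3 and 4 than in those numbered 1 and 2, by 0.35, 0.26 and 0.22 on the log2 scale, against -0.019 for CUL4B-1.

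**Figure D2:**
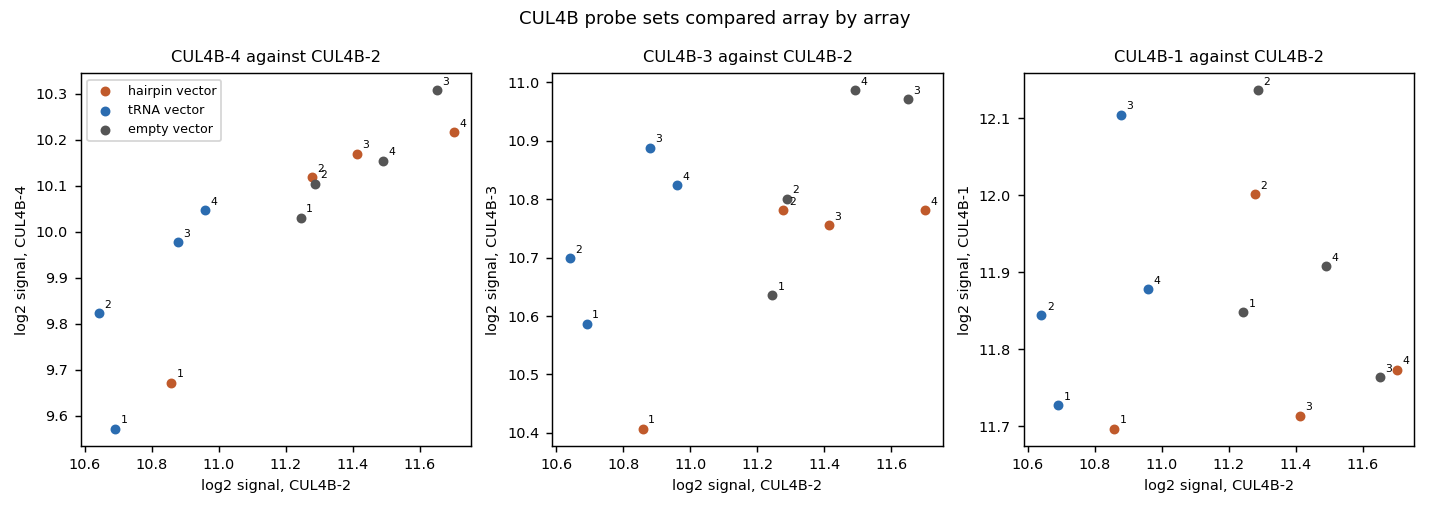
Log2 signal of 3 CUL4B probe sets (vertical axes) against that of CUL4B-2 (horizontal axes), 1 point per array with its number, coloured by vector. Points for CUL4B-4 run along a diagonal (r = 0.88), while those for the brightest probe set, CUL4B-1, show no trend (r = -0.031).

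Genes with the pattern most like the brightest CUL4B probe set over the 12 arrays were MCOLN3 (r = 0.891), CCDC93 (0.866), ABHD15 (0.834), CEP57 (0.821) and ABLIM1 (0.818), where the median over all genes was -0.015. For CUL4B-2, added after its values were seen, they were STX16 (r = 0.901), SETD2 (0.895), SGSM2 (0.89), LMNA (0.878) and GRB7 (0.871), with a median of -0.043 over all genes. These 10 were picked as the highest of all tested genes, so high values follow from the choice. No gene was in both sets.

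No probe set on the array passed limma in any of the 3 comparisons after Benjamini-Hochberg adjustment (0.0% of those tested, with a smallest adjusted p of 0.2355 for the hairpin over the tRNA vector, 0.3355 for the hairpin over the empty vector and 1 for the tRNA over the empty vector). At an unadjusted p under 0.05 the shares were 3.88%, 2.65% and 3.78%, or 1271, 867 and 1238 probe sets. In the fit without array number, 1, 0 and 0 of the 20 member probe sets outside CUL4B had an unadjusted p under 0.05. Counts called with a block are given at the end. These members were tested in the hairpin comparisons. In the fit without array number their smallest limma adjusted p was 0.9997 against the tRNA vector and 0.9999 against the empty vector. With array number as a block, limma gave CUL3-2 an unadjusted p of 0.013 for hairpin over tRNA (adjusted p = 0.5145). It gave CUL5-1 0.0363 for hairpin over empty (adjusted p = 0.8995) and, as a description, CUL4A-2 0.0355 for tRNA over empty. No other member probe set outside CUL4B was under 0.05 with that block. Such values do not show that the genes were unaffected. Unless a block is named, standard errors are those of the fit without array number, so differences between array numbers count in them as spread. With array number as a block they were smaller for most member probe sets. They were 0.079 for CUL2-1, 0.055 for RBX1 and 0.092 for CUL4B-2, against 0.21, 0.10 and 0.15 without it. The error did not fall for CUL9-1 (0.20 in both), CUL4A-4 (0.30 in both) or CUL5-4 (0.31, and 0.32 with the block).

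CUL4A, the paralogue of CUL4B that uses the same adaptor, had 4 tested probe sets. The brightest, CUL4A-1, gave 554, 608, 719 and 767 with the hairpin vector and 629, 535, 824.5 and 756 with the tRNA vector, against 514, 619, 788 and 690 for the empty vector. The groups overlapped, and within each group arrays 3 and 4 were above arrays 1 and 2. Its log2 fold change was -0.044 ± 0.17 for the hairpin over the tRNA vector, 0.025 ± 0.17 for the hairpin over the empty vector and 0.069 ± 0.17 for the tRNA over the empty vector. The next, CUL4A-2, stood against the empty vector at -0.32 ± 0.31 for hairpin and -0.39 ± 0.31 for tRNA, and its same-number differences for tRNA over empty ran from -1.12 in array 2 to 0.058 in array 3. For tRNA over empty, CUL4A-3 stood at 0.13 ± 0.19 and CUL4A-4 at 0.082 ± 0.30. So 3 of 4 CUL4A probe sets stood above the empty vector there, and the one below it varied widely within groups. For hairpin over empty, CUL4A-2 was lower in 4 of 4 same-number comparisons (-0.29, -0.38, -0.37 and -0.26). Its error was 0.17 with array number as a block. CUL4A-3 stood at -0.15 ± 0.19 there and CUL4A-4 at 0.29 ± 0.30. For hairpin over tRNA, CUL4A-3 stood at -0.29 ± 0.19, lower in 4 of 4. CUL4A-2 (0.069 ± 0.31) and CUL4A-4 (0.21 ± 0.30) stood higher there.

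DDB1, the adaptor that links CUL4 to its receptors, had 1 probe set. Its signals were 7253, 7656, 7424 and 6922 with the hairpin vector and 7678, 6219, 7303 and 7169 with the tRNA vector, against 7203, 7778, 7164 and 7327 for the empty vector. The groups overlapped, and tRNA vector array 2 was the lowest of all arrays. The log2 fold change was 0.048 ± 0.075 for the hairpin over the tRNA vector, -0.011 ± 0.075 for the hairpin over the empty vector and -0.059 ± 0.075 for the tRNA over the empty vector.

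RBX1, the RING subunit, also had 1 probe set, with 6684 ± 844 with the hairpin vector and 6899 ± 473 with the tRNA vector, against 6821 ± 756 for the empty vector (SD, n = 4). Array 2 was the lowest of each group and array 1 the highest. Its log2 fold change was -0.052 ± 0.10 for the hairpin over the tRNA vector, -0.032 ± 0.10 for the hairpin over the empty vector and 0.020 ± 0.10 for the tRNA over the empty vector. DDB1 and RBX1 were among the members measured most precisely, with CUL1, CUL3 and the brightest CUL4B probe set.

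CUL1, the scaffold of the SCF ligases with SKP1 and F-box proteins, was lower with the hairpin vector than with the tRNA vector in all arrays of its brightest probe set. That probe set, CUL1-1, gave 4191, 4232, 4479 and 4394 with the hairpin vector and 4688, 4712, 4792 and 4606 with the tRNA vector, against 4851, 4666, 4345 and 4703 for the empty vector. The hairpin vector arrays lay wholly below those of the tRNA vector, as 1.17% of all tested probe sets did, and overlapped the empty vector through empty vector array 3. The difference from the tRNA vector was -0.12 ± 0.065 on the log2 scale (fold 0.92, limma adjusted p = 0.9997), and from the empty vector -0.10 ± 0.065 (limma adjusted p = 0.9999). The dim probe set CUL1-2 stood at -0.29 ± 0.30 and -0.035 ± 0.30.

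CUL5, which works with elongins B and C and SOCS-box receptors, was higher with the hairpin vector than with the tRNA vector in all arrays of its brightest probe set. That probe set, CUL5-1, gave 4120, 4265, 3883 and 4172 with the hairpin vector and 3553, 3840, 3725 and 3393 with the tRNA vector, against 2648, 3746, 3984 and 3936 for the empty vector. The hairpin vector arrays lay wholly above the tRNA vector, as 1.46% of all tested probe sets did, and empty vector array 1 stood apart from the other 3. The log2 fold change was 0.18 ± 0.11 over the tRNA vector (limma adjusted p = 0.9997) and 0.22 ± 0.11 over the empty vector (limma adjusted p = 0.9999), or 0.079 without empty vector array 1. Against the tRNA vector, CUL5-2 (0.14 ± 0.19) and CUL5-4 (0.19 ± 0.31) had the same sign and CUL5-3 (-0.069 ± 0.28) the other.

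CUL3, the scaffold for BTB-domain receptors, had 2 tested probe sets that went opposite ways. The brightest, CUL3-1, gave 5929, 5999, 5466 and 5374 with the hairpin vector and 5994, 6630, 5780 and 5611 with the tRNA vector, against 6431, 6296, 5608 and 5542 for the empty vector. It was lower with the hairpin vector in 4 of 4 same-number comparisons against each of the others, at -0.076 ± 0.080 against the tRNA vector and -0.067 ± 0.080 against the empty vector. The dimmer CUL3-2 gave 811, 485, 579 and 597 with the hairpin vector and 503, 466, 465 and 497 with the tRNA vector, against 614, 460, 531 and 582 for the empty vector. The hairpin vector stood above the tRNA vector at 0.33 ± 0.15 (unadjusted p = 0.0476, limma adjusted p = 0.9997), higher in 4 of 4 same-number comparisons, though hairpin array 2 lay within the tRNA vector range. Without hairpin vector array 1 the value was 0.19.

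CUL2, whose ligase with VHL acts on hypoxia-inducible factors, varied more with array number than with vector. Its brightest probe set, CUL2-1, gave 1075, 1049, 1646 and 1649 with the hairpin vector and 1042, 1110, 1383 and 1696 with the tRNA vector, against 1062, 991, 1421 and 1649 for the empty vector. Arrays 3 and 4 (1383 to 1696) all lay above arrays 1 and 2 (991 to 1110), a difference of 0.57 on the log2 scale. Between vectors the log2 fold change was 0.044 ± 0.21 for the hairpin over the tRNA vector, 0.078 ± 0.21 for the hairpin over the empty vector and 0.034 ± 0.21 for the tRNA over the empty vector. The dim CUL2-2 stood at -0.12 ± 0.25, -0.043 ± 0.25 and 0.082 ± 0.25.

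Such a separation by number was seen in 4 of the 24 member probe sets. Over all tested probe sets it was 3.81%, with 2.36% higher and 1.45% lower in arrays 3 and 4. Beside CUL2 it held for CUL4A-1 (690 to 824.5 in arrays 3 and 4, against 514 to 629 in arrays 1 and 2), for CUL5-3 (583 to 676 against 285 to 568) and, downwards, for the brightest CUL3 probe set (5374 to 5780 against 5929 to 6630). The Bacillus controls differ between the same arrays, and their part in these values was not tested. Between vectors, with 4 arrays against 4, CUL5-1 lay wholly above and CUL1-1 wholly below for the hairpin over the tRNA vector (1.46% and 1.17% of all tested probe sets did). For the hairpin over the empty vector 0 members did (1.06% and 1.06%). For the tRNA over the empty vector CUL4B-2 lay wholly below, where the gene was chosen for being lower, and 0 members lay wholly above (1.43% below and 1.17% above over all tested).

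**Figure D3:**
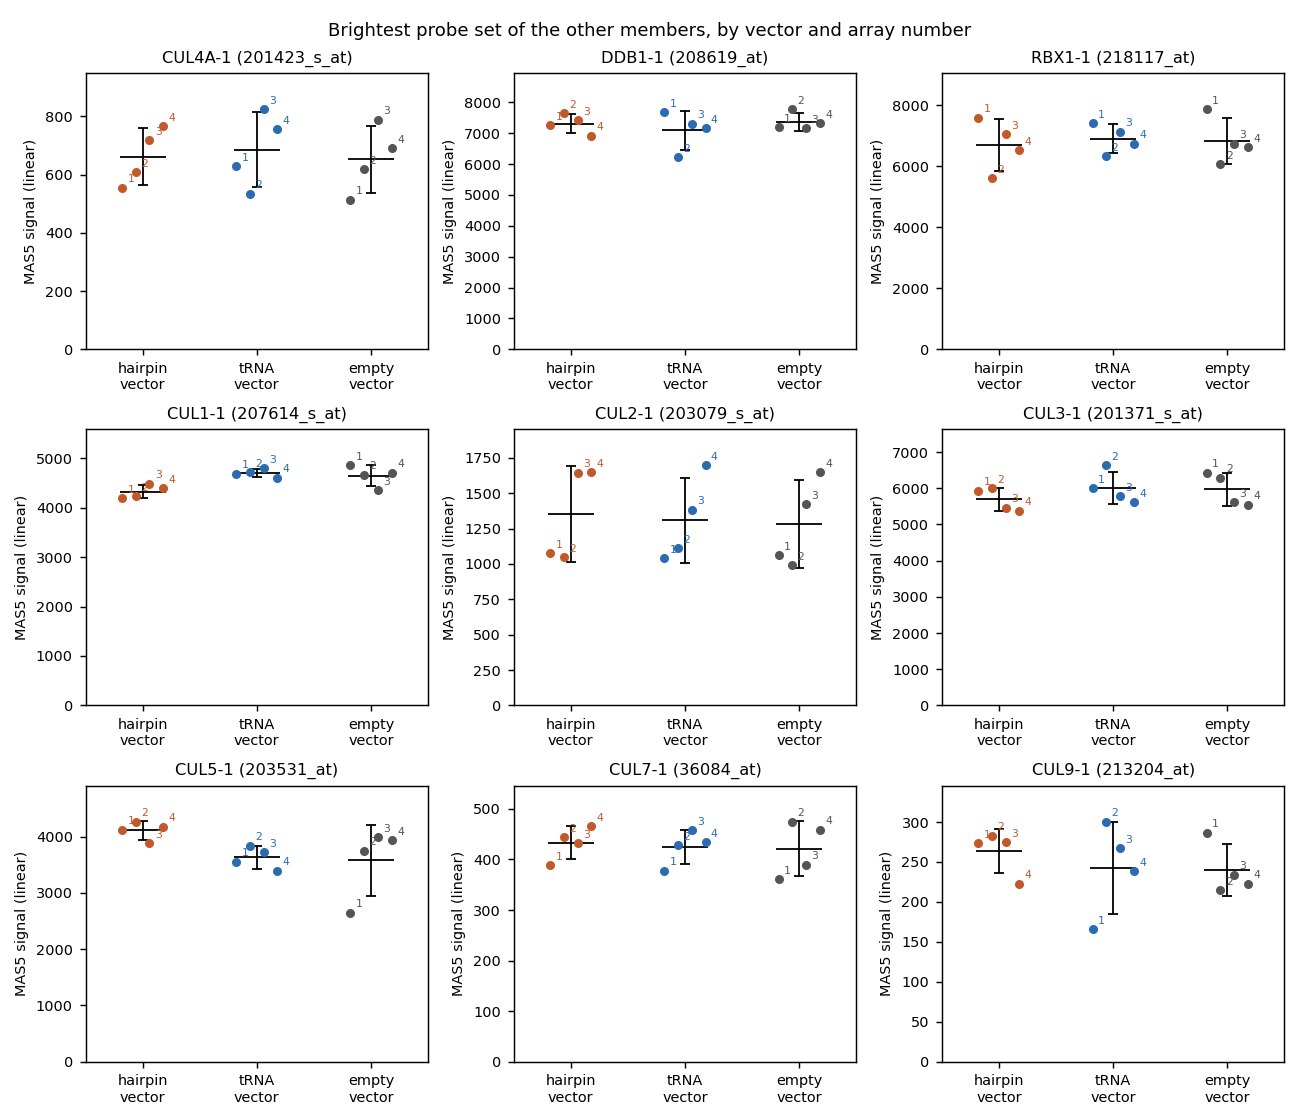
MAS5 signal (linear, vertical axes from 0) of the brightest probe set of each of the 9 other genes in the 12 arrays, by vector, with array numbers beside the points and bars for the mean ± SD of 4 arrays. The hairpin vector arrays of CUL1 (4191 to 4479) lie below and those of CUL5 (3883 to 4265) above the tRNA vector arrays, and in CUL2 arrays 3 and 4 lie above arrays 1 and 2 with every vector.

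CUL7, which forms a ligase with FBXW8 and takes part in growth control, and CUL9, a related large cullin that binds p53, were dimmer. The brightest CUL7 probe set, CUL7-1, had a signal of 433 ± 32.6 with the hairpin vector and 425 ± 33.5 with the tRNA vector, against 421 ± 54.4 for the empty vector (SD, n = 4), with log2 fold changes of 0.028 ± 0.13, 0.044 ± 0.13 and 0.017 ± 0.13 for the hairpin over the tRNA vector, the hairpin over the empty vector and the tRNA over the empty vector. CUL7-2 ranged from 28.0 in empty vector array 4 to 326 in empty vector array 3, and stood at 0.66 ± 0.56 with the hairpin vector against the empty vector. The dim CUL7-3 stood at -0.18 ± 0.48, 0.32 ± 0.48 and 0.50 ± 0.48 in the same order of comparisons as CUL7-1. CUL9-1 had 264 ± 27.3 with the hairpin vector and 243 ± 57.4 with the tRNA vector, against 240 ± 32.4 for the empty vector (SD, n = 4), at 0.15 ± 0.20, 0.14 ± 0.20 and -0.0055 ± 0.20. The 3 member probe sets below the filter were CUL3-3, CUL7-4 and CUL9-2, with signals of 8.4 to 85.3, 17.9 to 71.5 and 4.9 to 18.4 over the 12 arrays.

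Over the 24 tested member probe sets, 13 stood higher and 11 lower with the hairpin vector than with the tRNA vector (median 0.036, against 0.0051 over all tested probe sets, 51.0% of which stood higher and 49.0% lower). For the hairpin over the empty vector it was 11 higher and 13 lower (median -0.021, against 0.0031, with 50.8% higher and 49.2% lower). For the tRNA over the empty vector it was 13 higher and 11 lower (median 0.013, against -0.00035, with 49.9% higher and 50.1% lower), where all 4 CUL4B probe sets were among the lower ones and 7 of the other 20 were. Probe sets of 1 gene share a transcript and are not independent. Of the 7 genes with several tested probe sets, all had the same sign in 1 (CUL1) between the hairpin and tRNA vectors, in 3 (CUL4B, CUL1 and CUL7) between the hairpin and empty vectors and in 4 (CUL4B, CUL1, CUL2 and CUL7) between the tRNA and empty vectors.

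**Figure D4:**
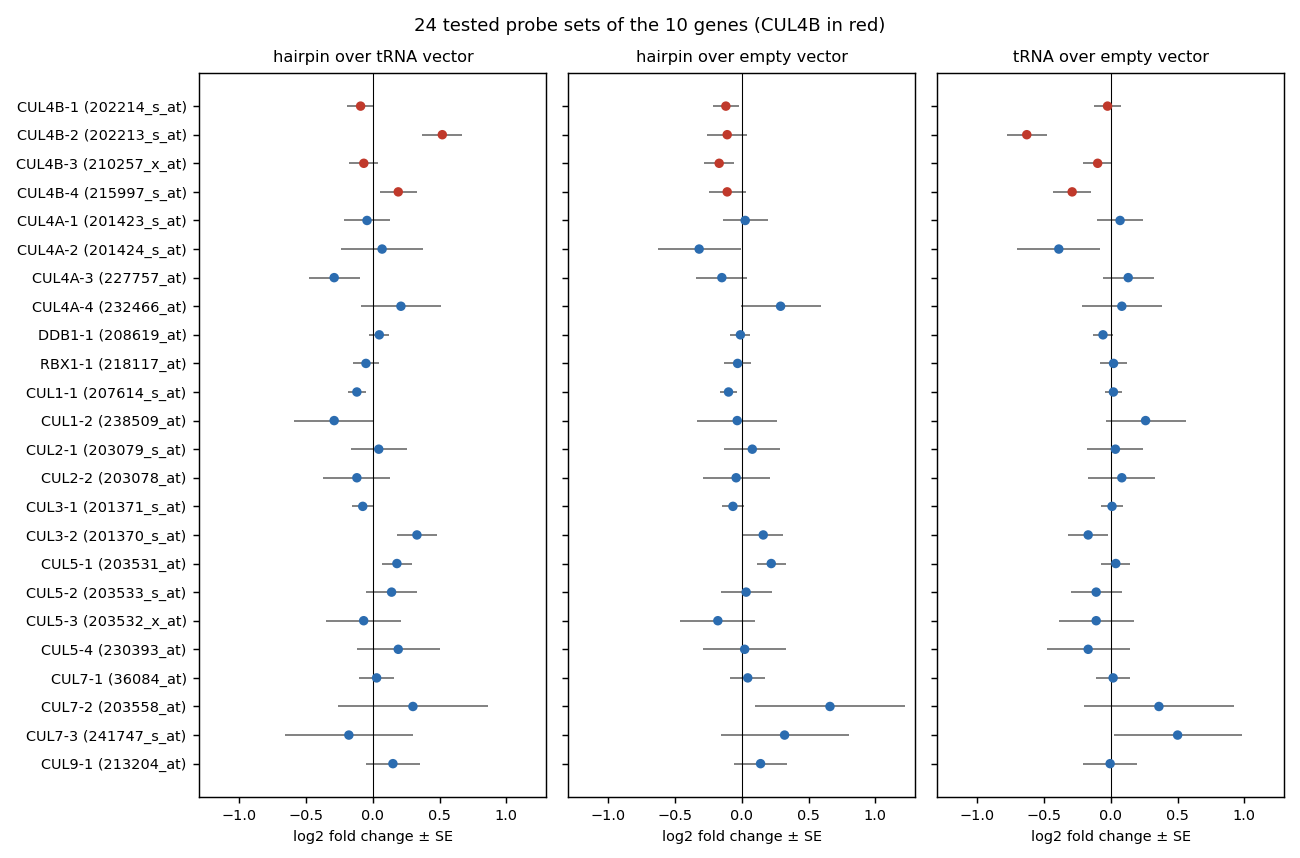
Log2 fold change (horizontal axes) with its limma standard error for the 24 tested probe sets, 1 row each, in the 3 comparisons, with CUL4B in red. CUL4B-2 stands at 0.52 for the hairpin over the tRNA vector, -0.11 for the hairpin over the empty vector and -0.63 for the tRNA over the empty vector, while the brightest CUL4B probe set stays within 0.12 of 0.

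Around the cullins, 9 lists of partner genes held 159 genes, 151 of which had a tested probe set. No gene of the lists passed limma after adjustment (0.0% of all genes tested in each comparison). At an unadjusted p under 0.05 there were 6 of 151 for the hairpin over the tRNA vector (3.97%, against 4.56% of all 13952 genes), 3 for the hairpin over the empty vector (1.99%, against 2.74%) and 3 for the tRNA over the empty vector (1.99%, against 4.26%). In each comparison the share in the lists was below that of all genes, so the counts are no result about the pathway. They come from the fit without array number, and list counts with a block are not given. The genes below are named as values, with the largest and smallest moderated t of each list in each comparison. As ends of their lists, they are more likely to have arrays that do not overlap. Over all tested probe sets 1.46% lay wholly above and 1.17% wholly below for the hairpin over the tRNA vector. These shares were 1.06% and 1.06% for hairpin over empty, and 1.17% and 1.43% for tRNA over empty. BRWD1 (hairpin over tRNA, above) and DET1 and DCUN1D5 (hairpin over empty, below) also did not overlap. Medians over all genes were 0.0028, 0.0042 and 0.0030 for hairpin over tRNA, hairpin over empty and tRNA over empty. The share of all genes that stood higher was 50.6%, 51.2% and 50.7%.

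COPS9, the small subunit of the COP9 signalosome, had the smallest p in the lists. Its signals were 6344, 5412, 6599 and 6205 with the hairpin vector and 4983, 4276, 4945 and 5250 with the tRNA vector, against 6219, 5775, 6026 and 6333 for the empty vector. The tRNA vector arrays lay wholly below both other groups, which overlapped. The log2 fold change was 0.34 ± 0.083 for the hairpin over the tRNA vector (fold 1.26, unadjusted p = 0.00116, limma adjusted p = 0.9997) and -0.33 ± 0.083 for the tRNA over the empty vector (unadjusted p = 0.00145, limma adjusted p = 1). Both rest on the same tRNA vector arrays. Of the 10 subunits, 4 stood higher with the hairpin vector than with the tRNA vector (median -0.028) and 7 stood higher with the tRNA vector than with the empty vector (median 0.035). At the other end were COPS6 at -0.13 ± 0.099 and 0.11 ± 0.099, and between the hairpin and empty vectors COPS2 (0.038 ± 0.065) and COPS4 (-0.046 ± 0.10), where 4 of 10 were higher (median -0.012).

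Among 14 measured genes that attach NEDD8 or regulate cullins, 6 were higher and 8 lower in each comparison (medians -0.011, -0.016 and -0.025 for the hairpin over the tRNA vector, the hairpin over the empty vector and the tRNA over the empty vector). NEDD8 itself gave 8220, 7988, 7583 and 7509 with the hairpin vector and 5054, 5750, 6700 and 9070 with the tRNA vector, against 7144, 8756, 9032 and 8048 for the empty vector. Its tRNA vector arrays spread more widely than the other groups, and array 4 was the highest of all 12. It stood at 0.27 ± 0.14 for the hairpin over the tRNA vector and -0.34 ± 0.14 for the tRNA over the empty vector (limma adjusted p = 0.9997 and 1), with ranges of 0.15 to 0.43 and -0.50 to -0.22 when tRNA vector array 1 or 4 was left out. UBE2F, an E2 enzyme of NEDD8 that serves CUL5, stood against the empty vector at 0.12 ± 0.090 for hairpin and 0.16 ± 0.090 for tRNA. DCUN1D5, a NEDD8 ligase factor, stood at -0.088 ± 0.064 for the hairpin over the tRNA vector and -0.094 ± 0.064 for the hairpin over the empty vector.

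The DCAF receptors, which bring substrates to CUL4 and DDB1, were measured for 26 genes. For the hairpin over the tRNA vector 11 were higher and 15 lower (median -0.0058), for the hairpin over the empty vector 10 and 16 (median -0.059) and for the tRNA over the empty vector 8 and 18 (median -0.044). BRWD1, a bromodomain receptor, gave 1416 to 1582 with the hairpin vector and 1080 to 1396 with the tRNA vector, against 1350 to 1569 with the empty vector, at 0.26 ± 0.10 for the hairpin over the tRNA vector and -0.19 ± 0.10 for the tRNA over the empty vector. DDB2, the receptor for ultraviolet damage in DNA, was the other with an unadjusted p under 0.05, at 0.18 ± 0.080 for the hairpin over the tRNA vector, and was named after its values were seen. DCAF12 stood at -0.21 ± 0.15 there. DCAF15 (0.19 ± 0.13) and DET1 (-0.14 ± 0.088) were at the ends for the hairpin over the empty vector, and ERCC8 (0.14 ± 0.15), of transcription-coupled repair, for the tRNA over the empty vector. Among the 2 other tested probe sets of ERCC8, 0 had the same sign there.

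Transcripts of 16 known CUL4 substrates were measured. For the hairpin over the tRNA vector 7 were higher and 9 lower (median -0.024), for the hairpin over the empty vector 8 and 8 (median 0.0026) and for the tRNA over the empty vector 6 and 10 (median -0.073). XPC, a damage sensor of nucleotide excision repair, gave 2230 to 2335 with the hairpin vector and 1778 to 2091 with the tRNA vector, against 2045 to 2598 with the empty vector, with no overlap between hairpin and tRNA vectors (0.22 ± 0.089). PRDX3, a mitochondrial peroxidase, gave 8358 to 9040 with the hairpin vector and 9187 to 10506 with the tRNA vector, against 8682 to 9617 with the empty vector, also without overlap between hairpin and tRNA vectors (-0.19 ± 0.067). Neither passed after adjustment (limma adjusted p = 0.9997 for both). MEIS2 (-0.22 ± 0.12) and the dim POLD4 (0.81 ± 0.52, or 0.16 without empty vector array 2) were at the ends for the hairpin over the empty vector, and CSNK1A1 (0.12 ± 0.064) and XPC (-0.19 ± 0.089) for the tRNA over the empty vector.

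Among SKP1 and the F-box receptors of CUL1, with 18 measured, 11 were higher for the hairpin over the tRNA vector (median 0.048), 8 for the hairpin over the empty vector (median -0.040) and 8 for the tRNA over the empty vector (median -0.062). FBXW7, the receptor for cyclin E and MYC, gave 880, 617, 835 and 929 with the hairpin vector and 731, 471, 586 and 731 with the tRNA vector, against 757, 783, 763 and 1349 for the empty vector. The tRNA vector arrays lay wholly below the empty vector, where array 4 stood apart. FBXW7 was at -0.51 ± 0.20 for the tRNA over the empty vector, or -0.31 without empty vector array 4. Only 1 of its 2 other tested probe sets had the same sign there. FBXW7 was at 0.38 ± 0.20 for the hairpin over the tRNA vector, or 0.25 without tRNA vector array 2. SKP1, the adaptor, stood at 0.10 ± 0.079 for the tRNA over the empty vector. FBXL20 (0.32 ± 0.15) and FBXO28 (-0.14 ± 0.094) were at the ends for the hairpin over the empty vector, and FBXL14 (-0.16 ± 0.10) for the hairpin over the tRNA vector.

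Of 25 measured BTB receptors of CUL3, 16 were higher for the hairpin over the tRNA vector (median 0.030), 14 for the hairpin over the empty vector (median 0.035) and 12 for the tRNA over the empty vector (median -0.013). RHOBTB2, a dim gene, gave 77.4, 74.0, 71.6 and 15.7 with the hairpin vector and 111, 141, 35.0 and 130 with the tRNA vector, against 123, 135, 150.1 and 85.1 with the empty vector. The hairpin vector arrays lay wholly below the empty vector. It stood at -1.26 ± 0.56 for the hairpin over the empty vector, or -0.70 without hairpin vector array 4. For the hairpin over the tRNA vector it stood at -0.87 ± 0.56, or -0.31 without the same array. KBTBD6 (0.24 ± 0.13) and KLHL20 (0.25 ± 0.15) were at the upper ends of these comparisons. The other tested probe set of KBTBD6 had the opposite sign, and 1 of 2 others of KLHL20 had the same sign. KLHL9 (0.13 ± 0.086) and KCTD10 (-0.21 ± 0.12) were at the ends for the tRNA over the empty vector.

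All 32 elongin adaptors and receptors of CUL2 and CUL5 were measured, of which 15 were higher for the hairpin over the tRNA vector (median -0.026), 17 for the hairpin over the empty vector (median 0.033) and 15 for the tRNA over the empty vector (median -0.0067). SOCS4, a receptor of CUL5, gave 3575, 3369, 3481 and 2711 with the hairpin vector and 2701, 2650, 2769 and 2557 with the tRNA vector, against 2746, 3051, 2721 and 2795 with the empty vector. Hairpin arrays 1 to 3 lay above all others and array 4 did not. It stood at 0.29 ± 0.091 over the tRNA vector and 0.21 ± 0.091 over the empty vector (limma adjusted p = 0.9997 and 0.9999), and its other probe set had the opposite sign in both. ELOC, elongin C, stood at -0.17 ± 0.089 for the hairpin over the tRNA vector, and KLHDC2 at -0.16 ± 0.094 for the hairpin over the empty vector. The dim SPSB4 (1.45 ± 0.68, or 0.68 without empty vector array 3) and SOCS1 (-0.54 ± 0.45, or -0.29 without empty vector array 2) were at the ends for the tRNA over the empty vector.

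None of the 3 partners of CUL7 had an unadjusted p under 0.05. FBXW8, its F-box partner, was at 0.44 ± 0.40 for the hairpin and 0.50 ± 0.40 for the tRNA over the empty vector, or 0.051 and 0.11 without empty vector array 2. CCDC8 was at 0.072 ± 0.16 for the tRNA over the empty vector and 0.087 ± 0.16 for the hairpin over the tRNA vector, and OBSL1 at -0.12 ± 0.11 for the hairpin over the tRNA vector and -0.015 ± 0.11 for the hairpin over the empty vector. Medians of the 3 were -0.057, 0.16 and 0.11 for the hairpin over the tRNA vector, the hairpin over the empty vector and the tRNA over the empty vector.

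Of the 7 measured ubiquitin E1, E2 and ARIH enzymes that work with cullins, 2 were higher for the hairpin over the tRNA vector (median -0.035), 3 for the hairpin over the empty vector (median -0.052) and 4 for the tRNA over the empty vector (median 0.019). CDC34, the E2 of the SCF ligases, stood at 0.13 ± 0.11 for the hairpin and 0.16 ± 0.11 for the tRNA over the empty vector. Its relative UBE2R2 stood at -0.18 ± 0.091 for the hairpin over the tRNA vector. ARIH1 (-0.095 ± 0.078) for the hairpin over the empty vector, ARIH2 (0.061 ± 0.10) for the hairpin over the tRNA vector and UBA1, the E1 (-0.096 ± 0.12), for the tRNA over the empty vector were the remaining ends. For DCUN1D5, UBE2F, DET1, FBXO28, FBXL14, ELOC, OBSL1, CCDC8, ARIH1 and PRDX3 the mean over all probe sets of the gene had the opposite sign in at least 1 of the hairpin comparisons given, and for UBE2F, SKP1, CDC34 and CSNK1A1 in the tRNA over the empty vector.

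**Figure D5:**
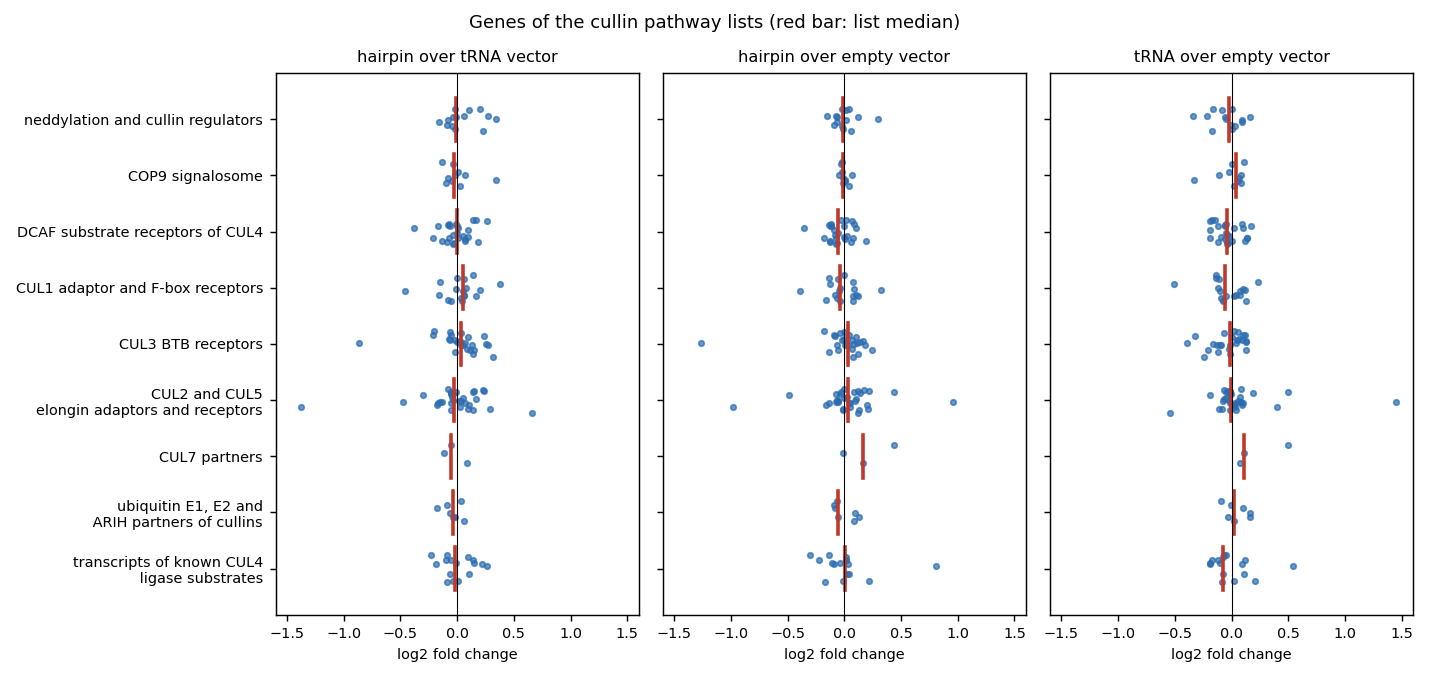
Log2 fold change (horizontal axes) of each measured gene of the 9 partner lists, 1 point per gene with random vertical spread, and the list median as a red bar, in the 3 comparisons. Medians lie between -0.073 and 0.16, with the 3 genes of the CUL7 list farthest from 0.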

How the data were processed

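The values the authors deposited are MAS5 signal intensities (linear) for each of 12 arrays, with a common trimmed mean. The submitters' processing notes name MAS5 with no version. The genome build is not given in the sources used here. Gene names came from the annotation of the array, updated by Entrez identifier through a RefSeq table. Log2 was taken without an offset. Of 54675 probe sets, 62 controls and 21845 dim ones were left out, dim meaning a mean log2 signal below percentile 40 (a signal of 43.3). limma 3.58.1 in R 4.3.3 (lmFit, eBayes with an intensity trend) was fitted to all 12 arrays with 3 group means, with Benjamini-Hochberg adjustment over 32768 probe sets, threshold 0.05, two-sided. Fold changes are from this fit. The fit was tested on simulated data with independent noise in each array and no effect of array number. That simulation cannot show how the fit behaves where arrays of the same number vary together. A gene is represented by its brightest probe set where no probe set is given. The rule for named genes was all probe sets of the 10 genes, the ends by moderated t of each partner list, and the 5 genes most like the brightest CUL4B probe set. The members and lists were chosen with earlier results of these data known. The alternatives for CUL4B-2, CUL3-2 and DDB2 were added after their values were seen.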

Additional observations from a re-analysis of the deposited data

Results flagged for a closer look

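In each group of 4 arrays, an array was picked out where its gap to the nearest other array on the log2 scale, divided by the range of the group, was above Dixon's critical value. Of 72 groups (24 probe sets in 3 vectors) 4 were picked out, where chance gives about 1 in 20. Empty vector array 1 of CUL5-1 had a signal of 2648, with the other 3 at 3746 to 3984. tRNA vector array 1 of CUL5-3 had 296, with the others at 568 to 604. Hairpin vector array 1 of CUL4B-3 had 1358, with the others at 1729 to 1760. Hairpin vector array 4 of CUL9-1 had 223, with the others at 274 to 283.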

How the results depend on the processing

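The precision rests on 4 arrays a group, and with no detection calls used the dim genes have the widest errors. Under 19 other settings (normalization, filter, offset, blocks, probe set choice and left-out arrays) no member outside CUL4B was called in the hairpin comparisons. limma called 0 probe sets in each comparison, 4 (tRNA over empty), 3 (hairpin over empty) and 8 (hairpin over tRNA) with the level of the Bacillus controls as a block (CUL4B-2 among the 4, in the comparison for which CUL4B was chosen), and 6 (hairpin over tRNA) with the array number as a replicate block, which called 0 in the other comparisons. The numbers are not stated to pair samples: 11 of 12 same-number pairs correlated above 0.1 (0.0987 to 0.356), and 9 of 12 arrays correlated best with their own number. Pairs of number 1 gave 0.284 to 0.356, and the other same-number pairs 0.0987 to 0.15. Different-number pairs ran from -0.231 to 0.148. Empty vector array 3 correlated at 0.148 with hairpin vector array 4 and at 0.124 with hairpin vector array 3. With the mean of its probe sets in place of the brightest, CUL4B was -0.26 for tRNA over empty and 0.14 for hairpin over tRNA. The brightest stood at -0.092 for hairpin over tRNA, so the sign of CUL4B turned there. Signs also turned with that mean, for hairpin over empty, in CUL4A (-0.040), CUL3 (0.046), DCUN1D5 (0.20), UBE2F (-0.095), DET1 (0.067), FBXO28 (0.074) and ARIH1 (0.056). For hairpin over tRNA they also turned in CUL2 (-0.040), CUL3 (0.13), DCUN1D5 (0.26), FBXL14 (0.13), ELOC (0.021), OBSL1 (0.057), CCDC8 (-0.086) and PRDX3 (0.095). For tRNA over empty they turned in CUL4A (-0.027), CUL3 (-0.082), CUL5 (-0.089), UBE2F (-0.016), SKP1 (-0.056), CDC34 (-0.056) and CSNK1A1 (-0.027). With quantile normalization they turned in CUL3 (-0.014) and RBX1 (-0.0049) for tRNA over empty. Leaving out single arrays turned signs for hairpin over empty in CUL4A (-0.084 to 0.12), CUL2 (-0.035 to 0.21), CUL7 (-0.027 to 0.10), DDB1 (-0.033 to 0.015), RBX1 (-0.095 to 0.050), COPS4 (-0.11 to 0.0075) and OBSL1 (-0.070 to 0.059). For hairpin over tRNA it did so in CUL4A (-0.16 to 0.051), CUL2 (-0.062 to 0.18), CUL7 (-0.027 to 0.078), CUL9 (-0.027 to 0.26), DDB1 (-0.014 to 0.087), RBX1 (-0.12 to 0.030) and CCDC8 (-0.0078 to 0.22). For tRNA over empty it did so in CUL4B-1 (-0.097 to 0.049), CUL4A (-0.040 to 0.18), CUL1 (-0.012 to 0.041), CUL2 (-0.10 to 0.17), CUL3 (-0.040 to 0.046), CUL5 (-0.10 to 0.095), CUL7 (-0.054 to 0.077), CUL9 (-0.12 to 0.17), DDB1 (-0.098 to 0.0032), RBX1 (-0.035 to 0.091), CCDC8 (-0.026 to 0.14) and UBA1 (-0.18 to 0.031). The cause was not tested.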
